A study of Mus musculus with 23 samples.

Results

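The genes described here encode 34 enzymes and regulators of hepatic carbohydrate metabolism: glycolysis, gluconeogenesis, pyruvate entry, glycogen turnover, and fructose and galactose use. They were chosen by gene name from a list, and the list was drawn up with earlier results of these data known. The 34 names match 35 of the gene entries in the deposited tables, which hold 24434 entries for males and 24940 for females, 22852 of them in both. Aldoa has 2 entries, of which ENSMUSG00000114515 had at most 2 counts in any liver and was not tested. The other 34 entries, 1 per name, passed the filter on low counts in all 5 comparisons.

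Messenger RNA was sequenced from the livers of 23 mice. Control livers came from 5 males and 6 females and LKO livers from 6 males and 6 females, and the control males analysed here carry the label numbers 1, 2, 3, 4 and 6. All 4 groups share the B100 designation, a diet that the labels call WD and that was fed for 16 weeks, and necropsy in the fed state. LKO denotes ablation of Cpt1a in the liver, as the series title has it. The meaning of B100, the Cre driver, the targeted allele, the age of the mice and any pooling of animals are not given in the sources used here. No label says that animals of a group came from separate litters or days, so p-values measure the spread between these samples.

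In the fed liver, glucose enters through Slc2a2 and is phosphorylated, passed down glycolysis to pyruvate, or stored as glycogen. In fasting the liver runs the route backwards from lactate and amino acids, with Pcx, Pck1 and Fbp1 at the steps that bypass glycolysis. Fructose and galactose join the pathway through enzymes of their own. Cpt1a admits long-chain fatty acids to mitochondria, and oxidation of fatty acids is known to supply the acetyl-CoA that activates pyruvate carboxylase and restrains pyruvate dehydrogenase.

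Promoters are shown for Galt, the gene called in a genotype comparison, and for Pklr, the textbook gene of the carbohydrate response element. RefSeq sequences of build GRCm38.p6 were at hand for 33 of the 34 names, with 49 promoters, and the 250 bases before each start were searched on both strands. The E-box, CACGTG, was present in 6.02% of all 32817 promoters and in a promoter of 7 of the genes (Galk1, Galt, Khk, Ldha, Pcx, Pdk2 and Pfkfb3). The 6.02% counts promoters and the 7 counts genes, some with several promoters, so they are not directly comparable. The carbohydrate response element, a tandem of E-box-like stretches with some letters free, was searched separately and was present in 0.28% of all promoters and in that of Pklr. A match describes the letters of the window and no binding. In the GENCODE annotation the stretch shown for Galt is untranslated leader of the transcript, so it does not lie before every annotated start. The capitals mark the E-box of Galt (chr4:41755463-41755492, plus strand, first base of the motif 42 bases before the RefSeq start) and the element of Pklr (chr3:89136373-89136562, plus strand, first base 170 bases before the start).
Galt: tgcccccaccgtCACGTGttggcgactagc
Pklr: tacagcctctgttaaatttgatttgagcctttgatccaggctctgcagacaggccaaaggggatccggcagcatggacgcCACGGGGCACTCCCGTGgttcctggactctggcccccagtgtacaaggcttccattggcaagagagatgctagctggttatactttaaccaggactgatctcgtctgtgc

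Levels between livers are given as CPM, read counts scaled to the size of the library, on 1 TMM scale over all 23 livers, and differences as log2 fold changes of LKO against control with their standard error (SE), from edgeR's quasi-likelihood test. A gene is called, and is said to have risen or fallen, at a Benjamini-Hochberg adjusted p under 0.05 over all genes tested. For control males the values stand in the order of the label numbers, and for groups of 6 the lowest, the median and the highest value are given. Libraries held 14224665 to 19626662 counts, and the 34 genes took 1.20% to 1.60% of them. Cpt1a fell in both sexes and checks the labels: its mean CPM in LKO livers was 17.7% of the control mean in males and 19.6% in females, with no overlap. Summed hepatocyte markers ran from 59750 to 108617 CPM over the livers. Summed markers of skeletal muscle, a tissue rich in glycolytic enzymes, did not exceed 0.846 CPM. That sum holds 3 of the 5 muscle markers listed (Acta1, Actn3 and Tnnt3), as Ckm and Myh4 were not among the genes listed for both sexes. The 8 hepatocyte markers had a median log2 difference of -0.30 in each sex, none of them called. Of the 8, 1 was higher in LKO males and 0 in LKO females. The part of these markers in the results below was not tested. In bulk liver, fewer cells of a type and less RNA per cell cannot be told apart.

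In the comparison of genotypes, Galt was the gene of the 34 that was called. In males 0 of the 34 were called by edgeR, against a background of 0.00724% (1 of 13805 genes, Cpt1a). At an unadjusted p under 0.05 there were 3 (8.82%, against 12.5% of all genes), 2 of them higher in LKO livers (background 5.23%) and 1 lower (7.22%), and DESeq2 called 1, Galt, against 1.29%. In females 1 of 34 was called, Galt, against 1.42% of 13684 genes (0.928% higher and 0.49% lower), and DESeq2 called 3, which were Galt, Gckr and Pygl, against 4.09%. With both sexes in 1 fit, 1 of 34 was called, again Galt, against 0.365% of 14503 genes, and DESeq2 also called 1, against 1.89%. At an unadjusted p under 0.05 that fit had 3 of the 34, against 13.9% of all genes, 1 higher (background 7.16%) and 2 lower (6.78%). The shares at an unadjusted p under 0.05 in females were 26.5% of the 34 genes (9, made up of 2 higher and 7 lower with LKO) and 15.6% of all genes (8.31% higher and 7.33% lower). The median log2 difference of the 34 genes was 0.09 in males and 0.06 in females, against 0.01 over all genes in each sex. Of the 34, 24 in males and 21 in females lay above 0, against 52.1% and 51.1% of all genes. The authors' deposited table calls 1 of the 35 entries in males, against 0.438% of all, and 3 in females, against 2.23%.

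**Figure D1:**
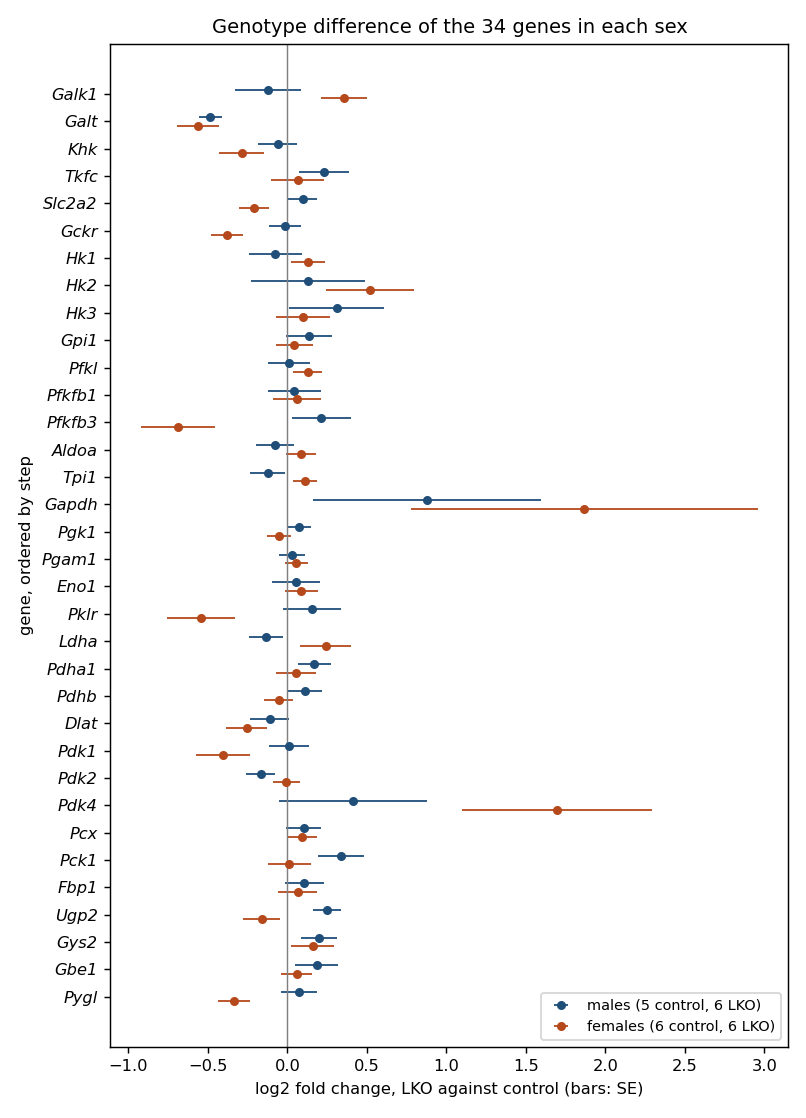
Log2 fold change of LKO against control livers for the 34 genes, ordered by metabolic step, with males (5 control, 6 LKO) in blue and females (6 control, 6 LKO) in orange; bars are the SE. Galt lies at -0.49 in males and -0.56 in females, and the widest bars belong to Gapdh and Pdk4.

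Galt encodes galactose-1-phosphate uridylyltransferase, which passes phosphorylated galactose on to UDP-galactose, and its transcript was lower in LKO livers of both sexes (ENSMUSG00000036073, chromosome 4, 41755228 to 41758695, plus strand, as the tables place it). In males it stood at 58.3, 61.9, 56.9, 73.4 and 62.0 CPM in controls and at 42.1, 45.4 and 45.9 CPM in LKO livers. Every LKO male lay below every control male. Of the 34 genes, 2 had groups that did not overlap in males, Galt and Ugp2 (5.88%, against 1.74% of all genes), and in females 0 had, against 1.58%. The male log2 difference was -0.49 (SE 0.07, adjusted p = 0.0611), the third lowest p of all genes, and it was not called. The DESeq2 adjusted p was 4.48e-06, and the authors' deposited table gives -0.49 with an adjusted p of 5.96e-06.

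In females Galt stood at 49.7, 65.5 and 76.1 CPM in controls and at 34.05, 44.4 and 52.1 CPM in LKO livers. The lowest control female lay below the 2 highest LKO females, and the other 5 lay above every LKO female. Galt fell by 0.56 on the log2 scale (SE 0.13, adjusted p = 0.0492). That call was lost with library size alone (adjusted p = 0.0536) and in 9 of the 12 fits that left out 1 liver: without control female 1 (0.0957), 2 (0.0706), 5 (0.124) or 6 (0.103), and without LKO female 2 (0.0683), 3 (0.0949), 4 (0.110), 5 (0.0797) or 6 (0.0668). The log2 value stayed between -0.62 and -0.50 in these fits. The authors' deposited table gives -0.56 with an adjusted p of 0.00485. With both sexes in 1 fit Galt fell by 0.52 (SE 0.08, adjusted p = 0.00147), a level 30.4% lower, and it was called in all 23 fits that left out 1 liver. The difference did not itself differ detectably by sex, with an interaction of -0.07 (SE 0.16, adjusted p = 0.880).

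Il11ra1, an interleukin-11 receptor gene on the plus strand (41699989 to 41769474), contains Galt, and how the counting shared reads between overlapping genes is not given in the sources used here, so the counts of Galt are uncertain to that extent. Il11ra1 was looked at after its values had been seen. With both sexes in 1 fit Il11ra1 fell by 0.36 (SE 0.06, adjusted p = 0.0123), a call held in all 23 fits without 1 liver. Per sex it was at -0.32 in males (adjusted p = 0.249) and -0.39 in females (adjusted p = 0.0538) by edgeR. DESeq2 called Il11ra1 in both sexes, with an adjusted p of 0.0490 in males and 0.00747 in females. In females edgeR also called it with all 23 samples in 1 fit (0.0393) and without control female 3 (0.0236) or 4 (0.0381). Dctn3, Rpp25l and Ccl27a, which lie within 50 kb, were not called: with both sexes in 1 fit they were at -0.10 (adjusted p = 0.457), -0.11 (adjusted p = 0.632) and -0.15 (adjusted p = 0.540). In males alone they were at -0.25 (adjusted p = 0.284), -0.26 (adjusted p = 0.413) and -0.28 (adjusted p = 0.433), and in females at 0.03, 0.03 and -0.04. How much of the Galt difference is shared with Il11ra1 was not tested.

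**Figure D2:**
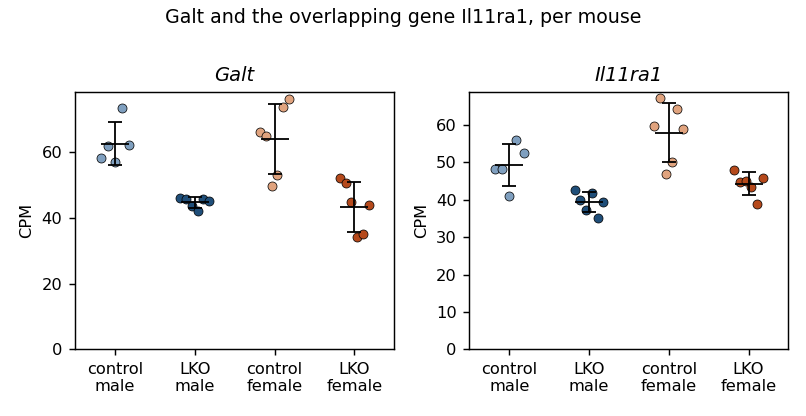
CPM of Galt and of Il11ra1, the gene that contains it, with 1 point per mouse and the mean and SD of each group (5 control males, 6 mice in the other groups). LKO livers have the lower mean in each sex for both genes, and for Galt in males the highest LKO liver, at 45.9 CPM, lies below the lowest control, at 56.9 CPM.

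Galk1, the kinase of the step before Galt, was not called and had opposite signs in the sexes. It had 159 ± 34.6 CPM in control males (SD, n = 5) and 146 ± 41.0 CPM in LKO males (SD, n = 6), a log2 difference of -0.12 (SE 0.21). In females it had 116 ± 21.1 and 148 ± 28.8 CPM (SD, n = 6 each), a difference of 0.36 (SE 0.14, adjusted p = 0.244).

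For fructose use no call was made. Khk, the ketohexokinase that traps fructose in the liver, was the third most abundant of the 34 genes per length, at 492 FPKM in control males and 483 FPKM in control females. It stood at 815, 831, 799.6, 1053 and 929 CPM in control males and at 657.5, 844 and 999 CPM in LKO males. Control females had 730.4, 914 and 956 CPM and LKO females 516, 738 and 919 CPM. The groups overlapped in both sexes, with 2 of the LKO females, numbers 5 and 6, far below the others. The log2 difference was -0.06 in males (SE 0.12, adjusted p = 0.888) and -0.29 in females (SE 0.14, adjusted p = 0.354). Tkfc, the triokinase that phosphorylates the glyceraldehyde made from fructose, was at 0.23 (SE 0.16) and 0.06 (SE 0.17), with adjusted p of 0.575 and 0.901.

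Glucose entry and its control were not called by edgeR in either sex, but the lowest female p after that of Galt belonged here. Gckr encodes the regulatory protein that holds glucokinase inactive in the nucleus (ENSMUSG00000059434, chromosome 5, 31454787 to 31484658, plus strand). It stood at 183, 215, 186, 192 and 182 CPM in control males and at 158, 193 and 222 CPM in LKO males. Control females had 208, 258 and 303 CPM and LKO females 166, 198 and 214 CPM. In females 1 control lay within the LKO range, while LKO males spread to both sides of the control males. In females the log2 difference was -0.38 (SE 0.10, adjusted p = 0.0706). The DESeq2 adjusted p was 0.0106, and without control female 4, the lowest control, edgeR gave -0.43 with an adjusted p of 0.0385. In males the difference was -0.01 (SE 0.10, adjusted p = 0.971). The authors' deposited table gives -0.38 for females, with an adjusted p of 0.0109.

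Slc2a2, the low-affinity glucose transporter of hepatocytes, stood at 230.5, 269.9, 250.2, 214 and 222 CPM in control males and at 217, 257.5 and 276 CPM in LKO males. In females it had 242, 266 and 349 CPM in controls and 216, 242 and 265 CPM in LKO livers. The ranges overlapped in both sexes, and the differences were 0.10 (SE 0.09) and -0.21 (SE 0.09, adjusted p = 0.298). The hexokinases Hk1, Hk2 and Hk3 were among the scarce members, at 0.298 to 2.74 FPKM in the control groups. Their differences ran from -0.08 for Hk1 in males to 0.52 for Hk2 in females (SE 0.28, adjusted p = 0.391). Macrophages also express hexokinases. The 9 macrophage markers summed to 306 to 632 CPM in control males, 504 to 751 in LKO males, 538 to 1014 in control females and 622 to 1022 in LKO females, and of the 9 only Trem2 was called by genotype within a sex, in females (1.32, SE 0.18, adjusted p = 0.00314). Of the 9 markers, 3 were higher in LKO females (median log2 difference -0.05) and 8 in LKO males (median 0.28). The part of macrophages in the hexokinase values was not tested.

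The steps from glucose phosphate to pyruvate held no genotype call. Pfkl, the liver phosphofructokinase that commits glucose to glycolysis, stood at 59.4, 60.1, 69.8, 48.7 and 51.5 CPM in control males and at 46.5, 56.0 and 74.95 CPM in LKO males. Control females had 42.7, 49.9 and 61.5 CPM and LKO females 47.8, 57.4 and 63.4 CPM. These ranges lay on top of each other, with differences of 0.01 (SE 0.13) and 0.13 (SE 0.09, adjusted p = 0.542). Pfkfb1 and Pfkfb3 make and degrade the activator of phosphofructokinase. Pfkfb1 was at 0.05 (SE 0.17) and 0.06 (SE 0.15). Pfkfb3, at 1.96 to 2.80 FPKM in the control groups, was at 0.21 in males (SE 0.19) and -0.69 in females (SE 0.23, adjusted p = 0.156). Its female values were 6.75, 15.04 and 22.4 CPM in controls and 7.03, 9.28 and 11.6 CPM in LKO livers. Control female 4 was the lowest of all females, and without it the value was -0.84 with an adjusted p of 0.0331.

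Pklr, the liver pyruvate kinase, is the last step of glycolysis. It stood at 387.5, 432, 475, 251 and 338 CPM in control males and at 284, 461 and 494 CPM in LKO males. Control females had 208, 334 and 647 CPM and LKO females 214, 276 and 314 CPM. Control females spread widely, and 2 of them, numbers 2 and 4, lay above every LKO female at 647 and 496 CPM, as did number 6 at 361 CPM. The log2 difference was 0.15 in males (SE 0.18, adjusted p = 0.791) and -0.54 in females (SE 0.22, adjusted p = 0.240). Without control female 2 the female value was -0.33.

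Gpi1, Aldoa, Tpi1, Pgk1, Pgam1, Eno1 and Ldha carry the reversible steps between these enzymes and the exchange of pyruvate with lactate. Their differences ran from -0.13 (Ldha) to 0.14 (Gpi1) in males and from -0.05 (Pgk1) to 0.24 (Ldha) in females, with adjusted p from 0.507 to 0.926. The 7 genes are among the abundant ones, at 48.0 to 404 FPKM in the control groups.

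Gapdh, the reversible glyceraldehyde-phosphate step, spread over livers far more than its neighbours in the pathway and was singled out after its values had been seen (ENSMUSG00000057666, chromosome 6, 125138678 to 125143430, minus strand). Control males had 120.4, 12.3, 165.6, 166.5 and 89.8 CPM. LKO males had 5.18, 209 and 311 CPM, with 1 liver, number 1, far below the others. Control females had 2.48, 4.68 and 241 CPM, and 5 of the 6 lay at 2.48 to 8.57 CPM. LKO females had 5.12, 171 and 252 CPM, with 1 liver, number 5, at the low end. So 8 of the 23 livers lay at 2.48 to 12.3 CPM and 15 at 89.8 to 311 CPM, with none between, and both levels occurred in every group. The fitted differences were 0.88 in males (SE 0.72, adjusted p = 0.660) and 1.87 in females (SE 1.09, adjusted p = 0.442), and neither was called. Without control female 6, the one high control female, the female value became 5.11 with an adjusted p of 0.00661. The liver low in Gapdh also had the lowest Tpi1 of its group in control males (469 CPM), LKO males (401 CPM) and LKO females (389 CPM), on a far smaller scale. Gapdh is known for many near-identical pseudogenes, and how the counting placed reads that fit several of them is not given in the sources used here.

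**Figure D3:**
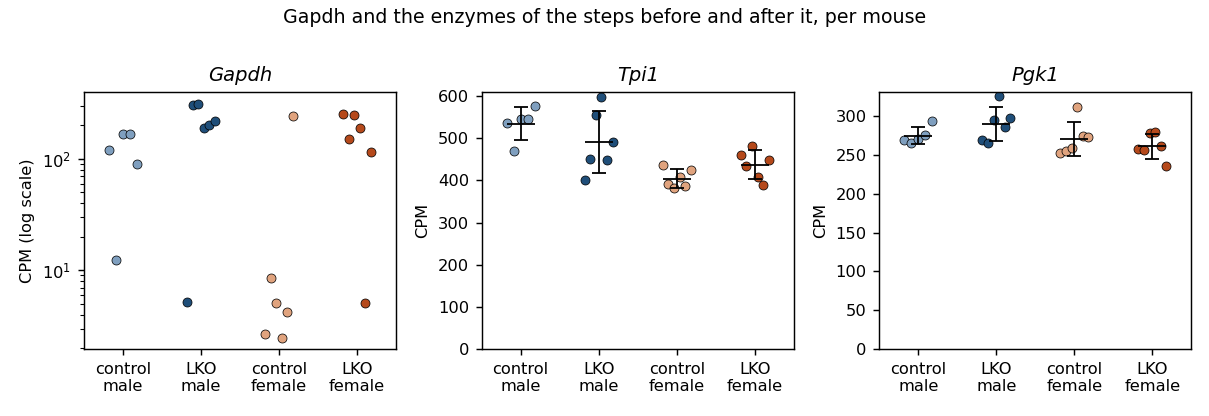
CPM of Gapdh (log axis), Tpi1 and Pgk1 (linear axes from 0), with 1 point per mouse in the 4 groups; mean and SD are drawn for Tpi1 and Pgk1. Gapdh splits into livers at 2.48 to 12.3 CPM and livers at 89.8 to 311 CPM within every group, while Tpi1 runs from 381 to 597 CPM and Pgk1 from 235 to 326 CPM.

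Pyruvate enters the mitochondrial cycle through pyruvate dehydrogenase, whose subunits include Pdha1, Pdhb and Dlat, or through pyruvate carboxylase, Pcx. No subunit was called: differences ran from -0.11 (Dlat) to 0.17 (Pdha1) in males and from -0.26 (Dlat) to 0.06 (Pdha1) in females, with adjusted p from 0.355 to 0.887. Pcx stood at 743.5, 857, 816, 618.5 and 848 CPM in control males and at 743, 831 and 943 CPM in LKO males. Control females had 607, 641.5 and 859 CPM and LKO females 713.5, 734 and 767 CPM. The LKO females were close to one another and inside the wider control range. Its differences were 0.10 (SE 0.11) and 0.09 (SE 0.09), with adjusted p of 0.759 and 0.695.

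Pdk1, Pdk2 and Pdk4 encode kinases that switch pyruvate dehydrogenase off, and Pdk4 is known as a gene of fasting and fatty acid use. Pdk4 stood at 9.82, 4.88, 22.2, 3.30 and 5.55 CPM in control males and at 6.12, 11.4 and 22.4 CPM in LKO males. Control females had 5.23, 17.7 and 39.6 CPM and LKO females 16.6, 37.02 and 167 CPM. The highest were LKO females 5 and 4, at 167 and 112 CPM, and the other 4 LKO females lay inside the control range. The log2 difference was 0.41 in males (SE 0.46, adjusted p = 0.775) and 1.70 in females (SE 0.60, adjusted p = 0.178), the second largest of the 34 genes after Gapdh. With both sexes in 1 fit it was 1.12 (SE 0.44, adjusted p = 0.247), not a call, and the interaction was 1.28 (SE 0.84, adjusted p = 0.543). Leaving out LKO female 5 gave 1.17 in females. In males the value ran from 0.16 without LKO male 4 to 1.06 without control male 3, and no such fit called it.

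Pdk1 in females had 71.4, 88.1 and 133 CPM in controls and 45.8, 74.7 and 87.9 CPM in LKO livers, a difference of -0.40 (SE 0.17, adjusted p = 0.267). In males it was at 0.01 (SE 0.13). Pdk2, the more abundant kinase per length at 59.2 and 60.2 FPKM in the control groups, was at -0.17 in males (SE 0.09, adjusted p = 0.471) and -0.01 in females (SE 0.08).

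The gluconeogenic genes Pck1 and Fbp1 were the most abundant of the 34 per length and were not called by genotype. Pck1, the carboxykinase that makes phosphoenolpyruvate, had 839 FPKM in control males and 1280 FPKM in control females (ENSMUSG00000027513, chromosome 2, 172994841 to 173001066, plus strand). It stood at 2462, 3207, 2430, 3328 and 2984 CPM in control males and at 2731, 3692 and 4794 CPM in LKO males. Control females had 3436, 4691 and 5257 CPM and LKO females 3684, 4447 and 5845 CPM. In males 4 of 6 LKO livers lay above every control, while the female ranges coincided. The log2 difference was 0.34 in males (SE 0.15, adjusted p = 0.374) and 0.01 in females (SE 0.14, adjusted p = 0.982).

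Fbp1, the fructose bisphosphatase that opposes phosphofructokinase, stood at 1298, 1236, 1089, 1482 and 1587 CPM in control males and at 1188, 1487 and 1701 CPM in LKO males. Control females had 1329, 1557 and 1740 CPM and LKO females 1319, 1562 and 2052 CPM. The groups overlapped across nearly their whole range in both sexes, with differences of 0.11 (SE 0.12, adjusted p = 0.781) and 0.07 (SE 0.12, adjusted p = 0.852).

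Among glycogen genes, Ugp2 in males and Pygl in females had the lowest p, and neither was called by edgeR. Ugp2 makes the UDP-glucose from which glycogen is built and which Galt also uses (ENSMUSG00000001891, chromosome 11, 21271138 to 21321201, minus strand). It stood at 362.8, 340.4, 362.1, 350.0 and 322 CPM in control males and at 363.2, 421 and 472 CPM in LKO males. The male groups did not overlap, although the highest control and the lowest LKO male nearly touched. The difference was 0.25 (SE 0.09, adjusted p = 0.306). In females Ugp2 had 311, 338 and 481 CPM in controls and 261, 331 and 358 CPM in LKO livers, overlapping ranges with a difference of -0.16 (SE 0.12, adjusted p = 0.560).

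Pygl, the liver glycogen phosphorylase that releases glucose phosphate, stood at 368, 413, 345, 507 and 361 CPM in control males and at 347, 434 and 459 CPM in LKO males (ENSMUSG00000021069, chromosome 12, 70237585 to 70278262, minus strand). Control females had 381, 428 and 502 CPM and LKO females 279.5, 336 and 404 CPM. In females the 2 highest LKO livers lay within the control range and the other 4 below it. The log2 difference was 0.08 in males (SE 0.11, adjusted p = 0.847) and -0.34 in females (SE 0.10, adjusted p = 0.120). DESeq2 gave an adjusted p of 0.0373 in females, and the authors' deposited table gives -0.34 with 0.0367.

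Gys2, the liver glycogen synthase, stood at 161, 192, 164, 170.4 and 214 CPM in control males and at 171, 202 and 250.3 CPM in LKO males. Control females had 198, 230.5 and 295 CPM and LKO females 179, 279 and 315 CPM. The ranges overlapped, and the differences were 0.20 in males (SE 0.11, adjusted p = 0.494) and 0.16 in females (SE 0.13, adjusted p = 0.627). Gbe1, the branching enzyme, was at 0.18 (SE 0.14) and 0.06 (SE 0.10).

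The interaction asks whether the genotype difference in females differs from that in males. It was called for 0 of the 34 genes and 0% of 14503 genes by edgeR, and for 0 of the 34 and 0.718% of all genes by DESeq2. At an unadjusted p under 0.05 there were 6 of the 34 (17.6%) and 1874 of all genes (12.9%). These 6 genes, Gckr, Slc2a2, Pfkfb3, Pklr, Pygl and Ugp2, all had a lower value in females: -0.37, -0.31, -0.90, -0.70, -0.41 and -0.41, with adjusted p from 0.271 to 0.352. Over all genes at that p, 861 (5.94%) were lower and 1013 (6.98%) higher. The interaction uses the same livers as the comparisons within each sex, so it adds no separate evidence on them. Sex coincides with the deposited table, and the 2 cannot be told apart.

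**Figure D4:**
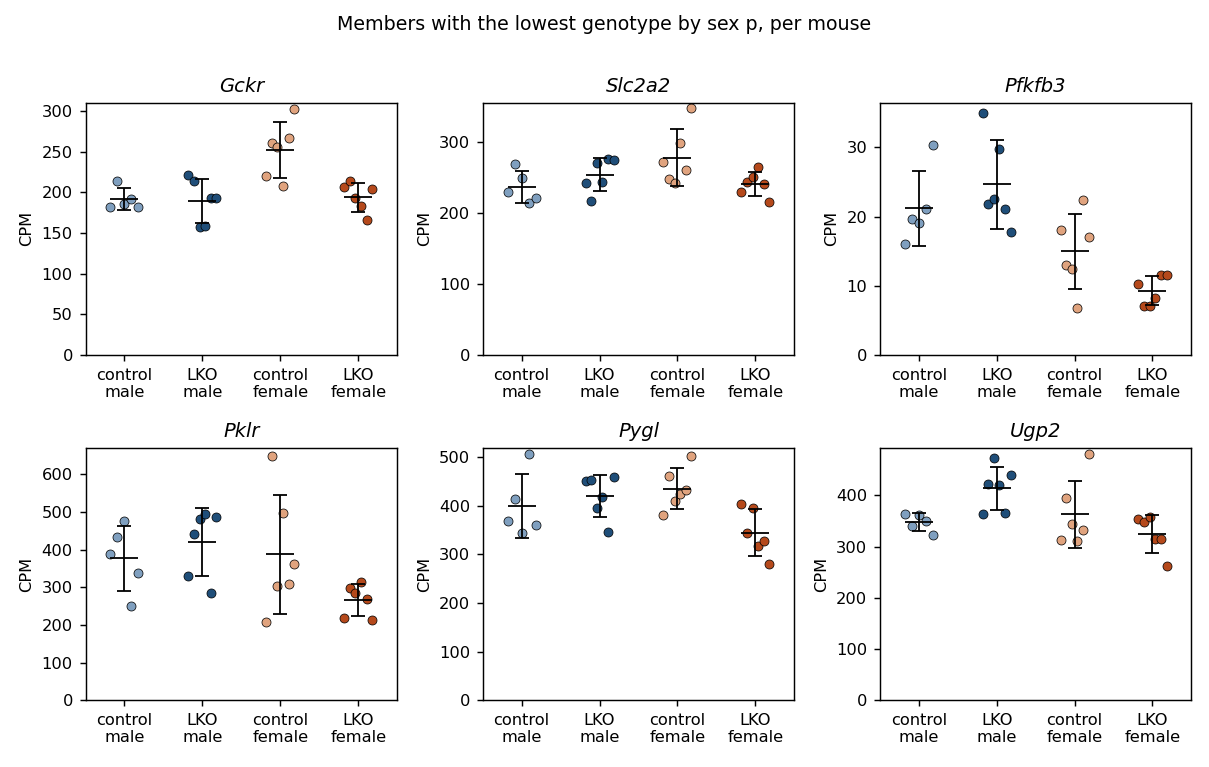
CPM per mouse of the 6 genes with an unadjusted interaction p under 0.05 (none called), with the mean and SD of each group; 5 control males and 6 mice in each other group, linear axes from 0. LKO females have a lower mean than control females for each of the 6, for example 194 against 253 CPM for Gckr, while the male means of Gckr are 190 and 191 CPM.

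Control females and control males differed in 8 of the 34 genes (23.5%), against 18% of 13699 genes, 4 higher (background 8.8%) and 4 lower (9.2%) in females. The share called lay near that of all genes, and sex coincides with the deposited table here too. Females had more Pck1, Gys2, Gckr and Pdk1, which serve glucose production, glycogen synthesis, glucokinase restraint and pyruvate dehydrogenase restraint. At an unadjusted p under 0.05 there were 12 of the 34, against 33.1%, 4 higher (background 16.7%) and 8 lower (16.5%). Females had less Aldoa, Tpi1 and Pgam1, which catalyse reversible steps of glycolysis, and less Ldha, which exchanges pyruvate with lactate. Gapdh, Pgk1, Eno1 and Pklr, of the same stretch of glycolysis, were not called, with adjusted p of 0.436, 0.860, 0.0611 and 0.940. Female control values are those given above where the gene was described, and these livers also enter the female genotype comparison. The female minus male log2 differences were 0.62 for Pck1 (SE 0.14, adjusted p = 0.00862), 0.41 for Gys2 (SE 0.12, adjusted p = 0.0291) and 0.40 for Gckr (SE 0.10, adjusted p = 0.0168).

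Pdk1 showed the largest of these differences, 0.74 (SE 0.17, adjusted p = 0.0102; ENSMUSG00000006494, chromosome 2, 71703568 to 71734202, plus strand). Control males had 55.4, 69.5, 56.5, 41.7 and 59.0 CPM, all below the lowest control female at 71.4 CPM. Tpi1, the triose phosphate isomerase, stood at 535, 469, 545, 544 and 575 CPM in control males and at 381, 399.8 and 435 CPM in control females. The groups did not overlap, and the difference was -0.40 (SE 0.08, adjusted p = 0.00423). Pgam1, the phosphoglycerate mutase, stood at 155, 156, 159, 125 and 142 CPM in control males and at 98.4, 112 and 116 CPM in control females. It too had no overlap, with a difference of -0.43 (SE 0.08, adjusted p = 0.00426).

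Aldoa, an aldolase found in many tissues, stood at 198, 159.8, 203, 159.1 and 188 CPM in control males and at 115, 144 and 159.1 CPM in control females, where the nearest livers of the groups all but coincide. Its difference was -0.37 (SE 0.10, adjusted p = 0.0227). The call was lost without control male 1 (0.0603), 3 (0.0540) or 6 (0.0510). Ldha, the lactate dehydrogenase subunit of liver, stood at 1187, 1204, 1233, 1571 and 1508 CPM in control males and at 631, 962.5 and 1280 CPM in control females. The highest control female, number 1, lay above the 3 lowest males, and the difference was -0.50 (SE 0.16, adjusted p = 0.0455). The Ldha call was kept in 1 of the 11 fits that left out a liver, the one without control female 1, and the others gave an adjusted p from 0.0521 to 0.104. For Gys2 the call was lost without control male 1 (0.0734) or 3 (0.0651) and without control female 2 (0.0590) or 6 (0.0619). Pck1, Pdk1, Gckr, Tpi1 and Pgam1 were called in all 11 such fits. With the label numbers as a block in the edgeR fit, Gys2, Pdk1 and Pgam1 kept the call. Lost there were Pck1 (adjusted p = 0.0844), Gckr (0.0844), Tpi1 (0.0510), Aldoa (0.0706) and Ldha (0.109). In 5 of the 34 genes (14.7%, against 10.3% of all genes) the control sexes did not overlap, namely Pck1, Pdk1, Tpi1, Pgam1 and Aldoa. Galt was at 0.03 between the control sexes (SE 0.12, adjusted p = 0.885).

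**Figure D5:**
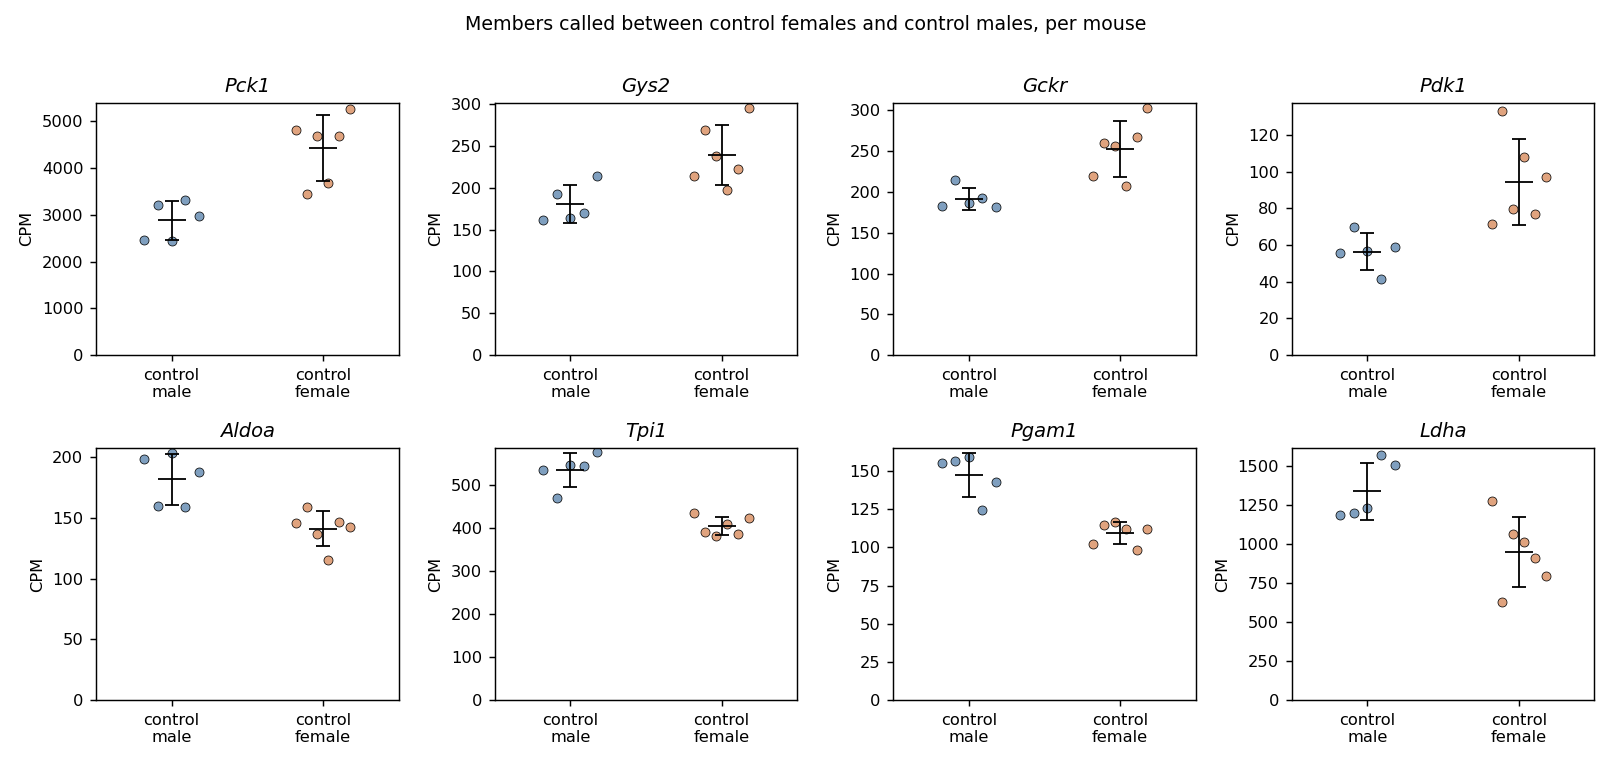
CPM per mouse of the 8 genes called between control females (6, orange) and control males (5, blue), with mean and SD and linear axes from 0. Pck1, Gys2, Gckr and Pdk1 are higher in females (Pck1 4427 against 2882 CPM on average), and Aldoa, Tpi1, Pgam1 and Ldha are lower (Ldha 951 against 1341 CPM).

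Per length, the order of the 34 genes was much the same in the control groups of both sexes. Pck1, Fbp1, Khk, Ldha and Eno1 led in that order, Hk1 and Hk2 were last, and Galt was 22nd in females and 23rd in males, at 25.6 and 25.2 FPKM. Neighbours in the middle of the order differed by less than their SD, such as Gpi1 at 55.0 ± 7.85 FPKM and Pgam1 at 54.7 ± 3.58 FPKM in control females (SD, n = 6 each).

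A further 94 genes of the same pathways, in 7 lists, were tested for context, with 88 of them tested in males and 89 in females. By edgeR none was called by genotype in males, in females, in the interaction or with both sexes in 1 fit. Of the genes named below, DESeq2 called Sord (adjusted p = 0.0389) and Cebpa (0.0490) in males, against 1.29% of all genes. In females it called Ppp1r3c (0.0285) and Mlxipl (0.0177), against 4.09%. Without LKO female 6, edgeR also called Ppp1r3c in females (-1.33, adjusted p = 0.0416). At an unadjusted p under 0.05, 4 were higher (background 5.23%) and 5 lower (7.22%) of 88 in males, and 10 were higher (8.31%) and 7 lower (7.33%) of 89 in females. Their median log2 difference was 0.00 in males and -0.01 in females, against 0.01 over all genes in each sex.

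In males, where edgeR called none, the lowest edgeR p of each list belonged to the following genes. They were Aldoc for glycolytic isoforms (-0.58, adjusted p = 0.374), Gpt2 for gluconeogenesis and shuttles (0.31, adjusted p = 0.497) and Mpc2 for pyruvate entry (-0.29, adjusted p = 0.321). Next came Ppp1r3c for glycogen (-0.80, adjusted p = 0.565, from -1.10 without LKO male 6 to -0.36 without control male 4) and Sord for fructose, galactose and polyol use (0.35, adjusted p = 0.266). Pgls led the pentose phosphate list (-0.24, adjusted p = 0.284) and Cebpa the regulators (-0.28, adjusted p = 0.274). Mpc2 is a subunit of the mitochondrial pyruvate carrier, and Ppp1r3c targets a phosphatase to glycogen.

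In females these genes were Pkm (0.33, adjusted p = 0.132), Mdh2 (0.18, adjusted p = 0.291), Mpc1 (0.26, adjusted p = 0.216) and Ppp1r3c (-1.04, adjusted p = 0.125). They were Slc2a8 (0.15, adjusted p = 0.370), G6pdx (-0.58, adjusted p = 0.453, and 0.04 without control female 2) and Mlxipl (-0.35, adjusted p = 0.0905) in the remaining lists. Mlxipl encodes ChREBP, the factor that binds the carbohydrate response element, and had 363 ± 50.4 CPM in control and 286 ± 21.02 CPM in LKO females (SD, n = 6 each). Its DESeq2 adjusted p was 0.0177, and edgeR called it in 1 of the 12 fits without 1 liver, that without control female 1 (0.0340). In males it was at 0.06 (SE 0.18).

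Between the control sexes, 15 of the 88 tested genes were called higher in females, against 8.8% of all genes, and 10 lower, against 9.2%. Against those same shares, of the 8 pentose phosphate genes, 4 were lower and none was higher, and of the 21 regulators, 8 were higher and 1 was lower. Glycolytic isoforms had 0 higher and 3 lower, gluconeogenesis and shuttles 2 and 1, and pyruvate entry 1 and 0. Glycogen genes had 1 and 0, and fructose, galactose and polyol genes 3 and 1.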

How the data were processed

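Liver mRNA of 23 mice was analysed, and groups and replicate numbers come from the sample titles. Per the labels' protocols, polyadenylated RNA was made into libraries with random priming and dUTP. The submitters' processing notes name HISAT2 2.0.5 and mm39 without a role, and the counting tool, its strand setting and the annotation release are not given in the sources used here. The authors deposited 1 table per sex with raw read counts per gene, FPKM, a normalized count signal, log2 fold changes and p-values for LKO against control. The tests used the deposited counts, levels between genes the deposited FPKM, and the authors' log2 fold changes and adjusted p-values are quoted only where named. The deposited normalized signal and group means entered no result. All sample columns could be mapped.

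Counts were fitted in R 4.3.3 with edgeR 4.0.16 (filterByExpr, TMM factors, quasi-likelihood test, Benjamini-Hochberg adjustment over all genes tested). Males and females were fitted alone. The interaction, the fit of both sexes with sex as a term, and the sexes in controls used genes listed in both tables. The fits were checked on simulated data. Alternatives were RLE factors, library size alone, no filter, at least 10 counts in every sample, DESeq2 1.42.0, a replicate block, a fit of all 23 samples, and leaving out each liver. Counts per sample were 14224665 to 19626662, and low genes such as Hk2 rest on few of them.

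The genes and lists were chosen with earlier results of these data known. Values by sample (for groups of 6 the lowest, median and highest) are given for genes called in a comparison, for the 3 lowest p in each sex, and for 11 genes at controlling steps, and Galk1, Tkfc, Pfkfb3, Gapdh and Il11ra1 and other genes near Galt were added after their values were seen. Not every gene near Galt or of the lists is reported here. Further pathway genes are given as counts, with the lowest p per list and sex. The promoters are those of RefSeq for GRCm38.p6, and gene positions are those of the tables.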

Additional observations from a re-analysis of the deposited data

Results flagged for a closer look

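For each of the 34 genes the highest or lowest liver of each group was compared with the nearest other liver of that group, by Dixon's ratio of the gap to the whole range. Of 136 such groups, 9 held a liver set apart, in 7 genes, and chance flags about 1 in 20 groups. Control male 4, the library with the lowest total count, accounts for 3 of them: Dlat at 40.9 CPM (nearest 60.5), Pdhb at 178 CPM (nearest 141) and Gbe1 at 85.8 CPM (nearest 128). Control male 6 stood apart for Pfkfb1, at 50.1 CPM (nearest 36.7). Control female 6 stood apart for Gapdh, at 241 CPM where the nearest control female had 8.57, and control female 4 for Pgk1, at 311 CPM (nearest 274). LKO female 3 stood apart for Pdhb, at 156 CPM (nearest 128), and for Tkfc, at 824 CPM (nearest 573). LKO female 4 stood apart for Dlat, at 63.7 CPM (nearest 49.2).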

How the results depend on the processing

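Of the log2 fold changes recomputed under each alternative, 1308 kept direction and side of the threshold, 34 kept the direction and lost the call, 18 gained one and 20 changed sign. Apart from G6pdx in females, at -0.58 as reported, those that changed sign lay near 0. With library size alone Gckr in males was 0.037 and Khk in males 0.012. Leaving out 1 liver, values ran from -0.062 to 0.042 for Gckr, -0.11 to 0.0056 for Khk, -0.083 to 0.10 for Pdk1 and -0.069 to 0.099 for Pfkl in males, and from -0.0091 to 0.12 for Fbp1, -0.71 to 0.040 for G6pdx and -0.076 to 0.070 for Pck1 in females. Of the 34 genes, males had 1 call (Galt) with at least 10 counts in every sample and 1 with DESeq2. Females had 0 with library size alone, 3 with DESeq2 and 0 to 3 without 1 liver, and control sexes had 5 to 11 without 1 liver.

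Over all genes, males had 2 calls with library size alone, 2 with no filter, 3 with at least 10 counts, 112 with DESeq2 and 5 with all 23 samples in 1 fit, and 1 to 2 without 1 liver. Females had 559 with DESeq2, 94 with all 23 samples in 1 fit and 87 to 233 without 1 liver. DESeq2 gave 96 for the interaction (0 to 17 without 1 liver by edgeR) and 268 with both sexes combined (13 to 143). Control sexes had 1766 to 2947 without 1 liver. The cause was not tested.

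Whether the label numbers pair the livers was not settled, since differently numbered livers were not correlated for comparison. Same-numbered control and LKO livers correlated at -0.38 to 0.42 in males (1 of 5 pairs over 0.1) and -0.01 to 0.18 in females (5 of 6). Controls across the sexes correlated at -0.19 to 0.12 (1 of 5). With the replicate block the calls over all genes were 2 in males, 334 in females, 23 with both sexes combined and 991 between control sexes. Without the block they were 1, 194, 53 and 2466. Between control sexes, 3 of the 34 genes (Gys2, Pdk1 and Pgam1) were called with the block. Pfkl in males was -0.0076. Galt kept its calls, and Il11ra1 with both sexes in 1 fit did not (-0.34, adjusted p = 0.0532).

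Depth limits the scarce genes most: Hk2 had as few as 9 counts in a liver, and its SE was 0.36 in males and 0.28 in females.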

Other observations

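Outside the 34 genes, several pathway genes differed between control females and control males, each by edgeR. Gpd1, which links glycolysis to glycerol phosphate, was lower in females, at -1.05 (SE 0.19, adjusted p = 0.00286), and Taldo1 of the pentose phosphate pathway at -0.59 (SE 0.09, adjusted p = 0.000690). Higher in females were Ppargc1a, a coactivator of gluconeogenic genes (1.09, SE 0.29, adjusted p = 0.0225), Foxo1, a factor that drives Pck1 in fasting (0.83, SE 0.19, adjusted p = 0.00972), and Slc37a4, the glucose phosphate transporter (0.58, SE 0.13, adjusted p = 0.0100). Slc25a10, with the lowest p of the gluconeogenesis and shuttle list, was lower in females, with a mean of 366 CPM against 612 CPM in males. Of the 13 tested genes of that list, 2 were called higher (background 8.8%) and 1 lower (9.2%), with a median log2 difference of -0.04. The genes named here were picked after their values were seen, and sex coincides with the deposited table.

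In the list of bile duct cell markers, Spp1 rose in LKO females (0.66, SE 0.12, adjusted p = 0.0135). No other marker of that list was called by genotype within a sex. Of the 5 markers, 5 were higher in LKO females (median log2 difference 0.38) and 2 in LKO males (median -0.26). Which cells account for the Spp1 difference was not tested.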
